A study of Mus musculus with 6 samples.

Results

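The vacuolar ATPase is a rotary proton pump that moves protons across membranes at the cost of ATP, and 9 genes for its widely expressed subunits are described here in obstructed and unobstructed mouse kidney. They are Atp6v1a, Atp6v1b2, Atp6v1c1, Atp6v1d, Atp6v1e1 and Atp6v1h of the cytosolic V1 sector and Atp6v0a1, Atp6v0c and Atp6v0d1 of the membrane V0 sector. The rule lists the genes by name, as the housekeeping and lysosomal forms, and uses no measured value. Their 15 probes, of 41174 on the array, were found by the gene name in the scanner files, and all 9 genes were among the 19598 genes tested. All 15 probes were above background on all 6 arrays.

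The study modelled renal fibrosis by tying the left ureter of CD-1 mice, an outbred stock, and kept the untied right kidney of each animal as its control. Both kidneys of 3 mice, numbered 495, 485 and 512 in the labels, were hybridised to single-colour Agilent arrays, 1 array per kidney. The ligated group is thus 3 left kidneys behind a complete ureteral ligation, and the contralateral group is the 3 right kidneys of the same mice, which stayed in an operated animal. The labels name kidney as the tissue but also enter primary cells as the cell type. The mice's age and sex and the time since ligation are not given in the sources used here. Kidney markers gave signal: each of 10 proximal tubule markers and each of 5 principal cell markers was above background on all 6 arrays. So was each of 6 osteoclast markers, and 65.3% to 74.2% of all probes were above background on an array. Being above background thus cannot tell kidney tissue from primary cells.

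In the pump, V1 splits ATP in a ring of catalytic A and regulatory B subunits, and the energy turns a central shaft that drives the proteolipid ring of V0 past the proton path in subunit a. Most cells use it to acidify endosomes and lysosomes, which activates lysosomal hydrolases and lets endocytosed receptors release their cargo, a heavily used route in the proximal tubule. Acid-secreting intercalated cells of the collecting duct also place the pump in the plasma membrane, with kidney-restricted isoforms of several subunits.

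The array reads each transcript through probes of 60 bases. For 5 of the 15 probes the genome interval is longer than the probe, as for a probe that crosses a splice junction. They are called splice-junction or junction probes below for that interval alone. Binding to unspliced or other RNA was not tested. Each of the 15 probe sequences stood on 1 probe alone. The 5 are shown because of their longer intervals, and capitals mark the 46 bases that both Atp6v1e1 probes share.
Atp6v1a: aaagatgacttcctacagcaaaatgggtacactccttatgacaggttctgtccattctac
Atp6v1e1, the probe that stands for the gene: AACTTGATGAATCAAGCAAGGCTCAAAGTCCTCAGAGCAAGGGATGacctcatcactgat
Atp6v1e1, the other probe: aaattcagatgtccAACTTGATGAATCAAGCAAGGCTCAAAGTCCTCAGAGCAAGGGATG
Atp6v1h, the probe that stands for the gene: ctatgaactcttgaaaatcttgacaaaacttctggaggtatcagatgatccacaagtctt
Atp6v0a1: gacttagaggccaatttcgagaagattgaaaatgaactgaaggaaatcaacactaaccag

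On the mm8 build that the files use, the Atp6v1a probe lies at chr16:44008394-44010546, the Atp6v1e1 probes at chr6:120769749-120773261 and chr6:120773216-120773984, the Atp6v1h probe at chr1:5126004-5133875 and the Atp6v0a1 probe at chr11:100836652-100837194. The Atp6v1h and Atp6v0a1 targets run on the plus strand and the others on the minus strand. The probes that stand for the other members lie at chr8:72041889-72041948 (Atp6v1b2), chr15:38623915-38623974 (Atp6v1c1), chr12:79761846-79761905 (Atp6v1d), chr17:23892403-23892462 (Atp6v0c) and chr8:108414007-108414066 (Atp6v0d1). No annotation of that build was used here, so exons and UTRs are not named.

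Genes of the pump and of the lysosome are known targets of the MiT/TFE transcription factors (TFEB, TFE3, MITF and TFEC), which bind an E-box-like element around CACGTG. RefSeq promoter windows of GRCm38.p6, from 250 bases before to 50 after the start of the gene, were matched for 6 of the 9 members, in 8 windows; Atp6v1b2, Atp6v1c1 and Atp6v1h had no entry. The motif TCACGTGA, which reads the same on both strands and contains CACGTG, was found in the windows of Atp6v1a and Atp6v0d1. It begins 132 bases before the Atp6v1a start and 4 bases before the Atp6v0d1 start. These stretches are shown because they hold the motif, and its part in the members' changes was not tested. Both genes lie on the minus strand, and capitals mark the motif.
Atp6v1a, chr16:44139344-44139431: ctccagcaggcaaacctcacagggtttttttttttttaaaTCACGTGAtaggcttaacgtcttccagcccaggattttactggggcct
Atp6v0d1, chr8:105566061-105566108: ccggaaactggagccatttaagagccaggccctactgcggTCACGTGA
Of all 32851 mouse windows of this length, 0.974% held TCACGTGA and 7.15% held CACGTG. The windows of Atp6v0a1, Atp6v0c, Atp6v1d and Atp6v1e1 held neither. Of 14 other subunit genes 11 were matched. Among them Atp6v0e held TCACGTGA, Atp6v0b held CACGTG without it, and the rest held neither. These matches describe letters in a window and not a site of binding.

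Levels below are scaled signals: the scanner's processed signal divided by the array's 75th percentile, so that 1 is the level of a probe at that percentile. Values for a group are always in the order of mice 495, 485 and 512. A level can be compared between kidneys for a gene but not between genes, whose probes differ in brightness. A summed level over a list is thus set mostly by its brightest probes. Log2 fold changes are ligated minus contralateral from a limma fit of 3 pairs with the mouse as a block, given ± SE. The SE is limma's moderated one, which draws each gene's variance towards that of all genes (2.055 prior against 2 residual degrees of freedom). It is thus not the spread of the 3 mice alone. Calls rest on Benjamini-Hochberg adjustment over all genes tested, at a threshold of 0.05.

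The contralateral kidney of mouse 512 stood apart from the other contralateral kidneys. The summed level of 10 macrophage markers was 90.3 in it against 18.7 and 17.6, and that of 10 proximal tubule markers was 501 against 1540 and 1680. Cd14 (41.8) and Lyz2 (38.1) gave most of the 90.3. Each macrophage marker except Csf1r (1.88 against 2.26 and 2.51) was higher in it than in both others. The array 75th percentiles before scaling were 740, 671 and 1106 in the contralateral and 1362, 1432 and 1068 in the ligated kidneys, and 65.3% to 69.0% of probes were above background in the contralateral against 71.6% to 74.2% in the ligated kidneys. Mouse 512 was also the only animal on the second slide, so its slide and its own biology cannot be told apart.

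Transcripts of the ubiquitous subunits were lower in the obstructed kidney. Of the 9 members 8 were called lower and 0 higher, where 14.7% of all genes tested were called lower. The median log2 fold change of the members was -1.12 and that of all genes was -0.01. For all 9 members the 3 ligated kidneys lay below the 3 contralateral kidneys without overlap, which held for 28.8% of all genes. The exception to the calls was Atp6v0a1. The summed level of the 9 genes was 120, 118 and 73.5 in the contralateral kidneys and 51.2, 50.5 and 41.5 in the ligated kidneys. The ligated kidneys were thus within a narrow band, while the contralateral kidney of mouse 512 was lower than the other contralateral kidneys. In a whole kidney, fewer cells of a type and less RNA per cell cannot be told apart.

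Under centring on the spike-in spots, which shifts the median of all genes to 0.31, 0 members were called by limma and 2 had an unadjusted p under 0.05, although all 9 stayed negative with a median of -0.80. Quantile normalization ended the calls of Atp6v0d1 (-0.39, adjusted p = 0.110), Atp6v1d (-0.45, adjusted p = 0.0650) and Atp6v1c1 (-0.70, adjusted p = 0.0700), and testing without a filter on dim probes those of Atp6v1a, Atp6v1c1, Atp6v1d and Atp6v0d1, at adjusted p-values of 0.0519 to 0.0585. The calls also depend on which mice are used. Without mouse 495 or without mouse 485 limma called 0 genes of the whole array (8 members had an unadjusted p under 0.05 in each case). Without mouse 512 it called 8 members, where 29% of all genes were called lower. Without the contralateral kidney of mouse 512 in an unpaired fit it called 8 members, with a median of -1.31, where 30% of all genes were called lower.

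**Figure D1:**
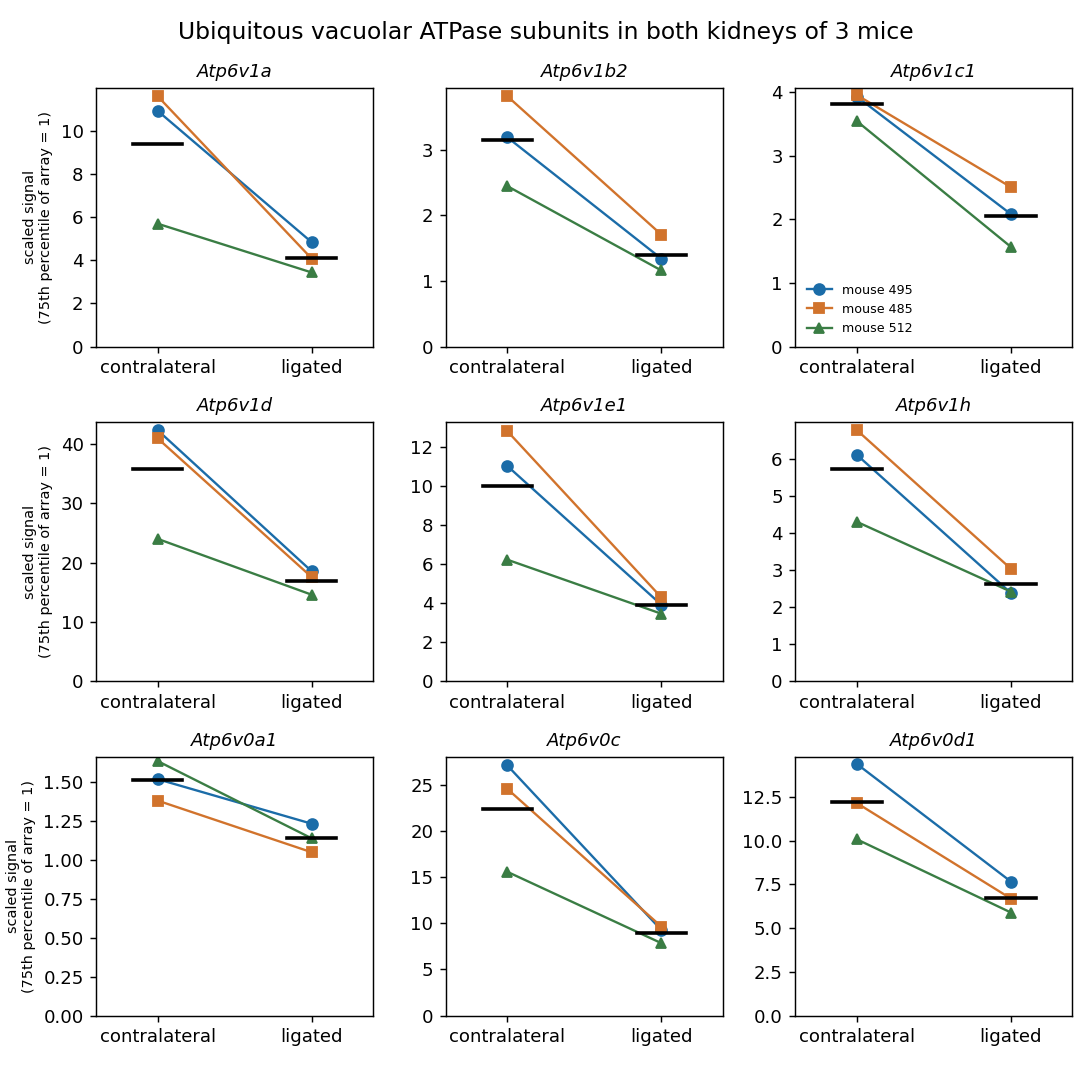
Scaled signal (linear axis, 75th percentile of the array = 1) of the 9 subunit genes in the contralateral and the ligated kidney of 3 mice. Lines join the kidneys of a mouse and black bars are group means. All 9 genes were lower in the ligated kidney of each mouse, and for 8 of the 9 the contralateral kidney of mouse 512 was the lowest of its group.

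Within V1, all 6 members were called lower, with a median of -1.13. Atp6v1a encodes subunit A, which holds the catalytic ATP sites. Its levels were 10.9, 11.6 and 5.69 in the contralateral kidneys and 4.83, 4.07 and 3.43 in the ligated kidneys. The contralateral kidney of mouse 512 lay between the groups of the other mice, but still above every ligated kidney. The fold change was -1.14 ± 0.21 (adjusted p = 0.0330), or 2.20-fold lower. The splice-junction probe of Atp6v1a shown above gave -0.99 ± 0.20.

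Atp6v1b2 encodes subunit B2, the widely expressed form of the nucleotide-binding subunit that alternates with A in the ring. Its levels fell from 3.19, 3.81 and 2.44 to 1.34, 1.71 and 1.16. The 3 mice agreed closely, with within-mouse log2 differences of -1.25, -1.16 and -1.08. The fold change was -1.16 ± 0.14 (adjusted p = 0.0237), the smallest adjusted p among the members, at 2.24-fold lower.

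Atp6v1e1 encodes subunit E1 of the peripheral stalks that hold the ring still against the rotor. It read 11.0, 12.8 and 6.22 in the contralateral and 3.91, 4.29 and 3.45 in the ligated kidneys. Here mouse 512 differed least between its kidneys (-0.85 against -1.49 and -1.58). Its contralateral kidney was the lowest of its group, and so was its ligated kidney. The fold change of -1.31 ± 0.21 (adjusted p = 0.0296), or 2.47-fold, was the largest of the 9. The overlapping probe of Atp6v1e1 gave -1.27 ± 0.19 and is no independent reading, since it shares most of its sequence.

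Atp6v1d encodes subunit D of the central shaft. Its probe read 42.3, 40.9 and 24.0 in contralateral and 18.5, 17.5 and 14.6 in ligated kidneys. The lowest contralateral kidney, that of mouse 512, was above the highest ligated kidney. The change was -1.05 ± 0.18 (adjusted p = 0.0311, 2.06-fold lower).

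Atp6v1c1 encodes subunit C1, which clamps V1 to V0 and is released when the pump comes apart. Contralateral levels were 3.93, 3.95 and 3.54, and ligated levels were 2.08, 2.51 and 1.57. For this gene the contralateral kidney of mouse 512 was close to the others, and the within-mouse differences (-0.92, -0.66 and -1.18) were largest in mouse 512. The change was -0.92 ± 0.17 (adjusted p = 0.0336), or 1.89-fold lower.

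Atp6v1h encodes subunit H, which couples V1 to V0 and keeps free V1 from spending ATP. The junction probe shown above read 6.11, 6.77 and 4.30 in contralateral and 2.38, 3.03 and 2.42 in ligated kidneys, with no overlap. The change was -1.12 ± 0.17 (adjusted p = 0.0289), or 2.17-fold lower. A further Atp6v1h probe gave -1.20 ± 0.17, while a dim probe that the files assign to a cDNA clone (chr1:5089194-5089253, plus strand) read 0.0834, 0.0692 and 0.0622 against 0.0761, 0.0830 and 0.0555 and gave -0.01 ± 0.16.

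Of the V0 members, 2 of 3 were called lower, with a median of -0.85. Atp6v0c encodes the proteolipid subunit c, which repeats around the rotor ring and carries protons across the membrane. Its levels dropped from 27.1, 24.5 and 15.6 to 9.27, 9.64 and 7.85. The ligated kidneys were alike, and the contralateral kidney of mouse 512 was the lowest of its group. The change was -1.29 ± 0.18 (adjusted p = 0.0262), or 2.45-fold lower.

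Atp6v0d1 encodes subunit d1, which joins the central shaft to the ring. Levels were 14.4, 12.1 and 10.1 in contralateral and 7.67, 6.69 and 5.90 in ligated kidneys. The mice differed little, at -0.91, -0.86 and -0.77 within each pair. The change was -0.85 ± 0.14 (adjusted p = 0.0300), or 1.80-fold lower.

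Atp6v0a1 encodes subunit a1, an isoform of the part that forms the proton path and helps to decide in which membrane the pump resides. It was the member that was not called. Levels were 1.52, 1.38 and 1.63 in the contralateral and 1.23, 1.05 and 1.14 in the ligated kidneys, without overlap but with a gap smaller than for the other members. Unlike the other 8, Atp6v0a1 had its highest contralateral level in mouse 512. The log2 fold change was -0.41 ± 0.14 (adjusted p = 0.0939). In each of the 3 mice it had the smallest difference of the 9 genes; compared with the median of the other 8 it was higher by 0.92, 0.80 and 0.32 (mean 0.68, SD 0.32). The exact two-sided sign-flip test over 3 mice gave p = 0.25, the smallest it can give, and this contrast was chosen after the values were seen.

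The probes of Atp6v0a1 disagreed. The splice-junction probe shown above read 0.216, 0.278 and 0.322 against 0.213, 0.208 and 0.275 in the ligated kidneys, a change of -0.22 ± 0.16 with an adjusted p of 0.304 over all probes tested. The remaining probe, assigned by the files to a cDNA clone and lying before the junction probe (chr11:100835732-100835791, plus strand), read 0.142, 0.139 and 0.183 in contralateral and 0.243, 0.376 and 0.279 in ligated kidneys. That probe was higher in each ligated kidney, at 0.94 ± 0.22 (adjusted p = 0.0457 over all probes). Its sequence had 0 forward reading frames free of stop codons, and the brightest and the junction probe of Atp6v0a1 had 1 each. The probes that stand for Atp6v1a and Atp6v0d1 also had 0. Which transcript the cDNA-clone probe reads was not tested. The brightest probe, at chr11:100879247-100879306 on the plus strand, stands for the gene here; with the mean of the 3 probes in its place the change of Atp6v0a1 was 0.10. With centring on the array median, which lowers the median of all genes to -0.32, Atp6v0a1 was called lower at -0.71.

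**Figure D2:**
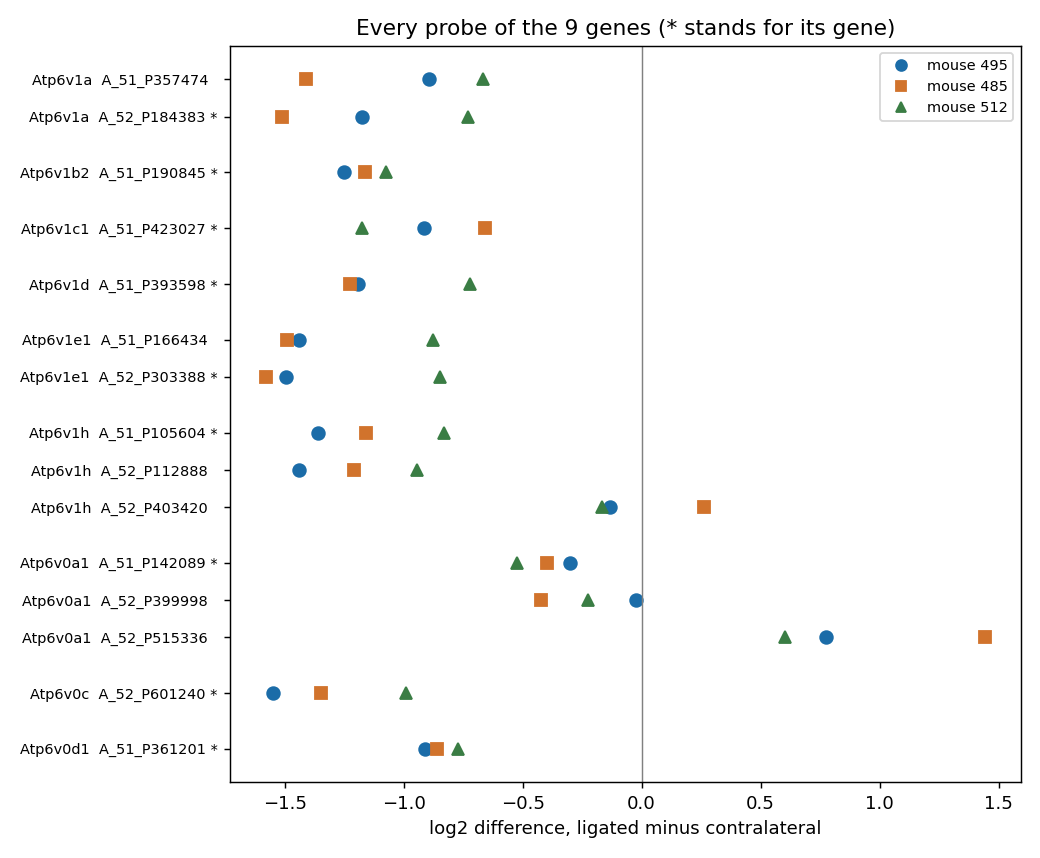
Log2 difference between the ligated and the contralateral kidney of each mouse (points) for all 15 probes of the 9 genes; a star marks the probe that stands for its gene. Probes of Atp6v1a and of Atp6v1e1 lie together, while 1 probe of Atp6v1h sits around 0 and 1 of Atp6v0a1 lies above 0 in all 3 mice.

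Across members, the median differences of mice 495, 485 and 512 were -1.19, -1.16 and -0.83. The smaller value in mouse 512 went with its control: measured against the mean of the other contralateral kidneys, the members' median in mouse 512 was -0.58 in the contralateral and -1.51 in the ligated kidney, and -1.21 in the ligated kidneys of mice 495 and 485. For 8 of the 9 members the contralateral kidney of mouse 512 was below both other contralateral kidneys, which held for 44.2% of all genes. Levels over the 6 arrays, which come as 3 pairs, ran closely together. Atp6v1a and Atp6v1d had r = 0.994, and the lowest r among the 8 called members was 0.873, between Atp6v1a and Atp6v1c1. Atp6v0a1 had its highest r, 0.817, with Atp6v0d1. These are descriptions of arrays that share the same group difference.

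Other genes with like patterns were found by the distance between log2 profiles, each centred on its mean over the 6 arrays, among 14090 genes with a plain symbol. For Atp6v1a the nearest were Ptgr2, Fam187b, Thrb, Pebp1 and Atp1b1, the beta 1 subunit of the sodium pump, at distances of 0.105 to 0.161 and r of 0.997 to 0.998. For Atp6v0c they were Ftdc2, Cdc34, Arhgap24, Tmem126a and Ndufb6, a subunit of respiratory complex I, at distances of 0.0902 to 0.169 and r of 0.995 to 0.999. The fold changes of these neighbours ran from -1.15 to -1.06 and from -1.38 to -1.23. Since the neighbours were picked by distance on the same 6 arrays, their high r and like fold changes follow from the choice.

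The remaining widely expressed subunits were mostly lower as well. Of 5 such genes 4 were called lower and 0 higher, with a median of -0.78, where 14.7% of all genes were called lower. Atp6v0b, the second proteolipid, was at 23.2, 19.6 and 21.7 in contralateral and 10.8, 12.0 and 10.8 in ligated kidneys (-0.93 ± 0.16, adjusted p = 0.0311). Its contralateral kidneys were alike, that of mouse 512 included. Atp6v1g1, of the peripheral stalk, fell by 0.88 and Atp6v1f, at the tip of the shaft, by 0.78 on the log2 scale. The other two of the list, named to complete it, were Atp6v0e (-0.70 ± 0.14, called lower) and Atp6v0a2 (-0.37 ± 0.14, adjusted p = 0.105), which is another a isoform. With quantile normalization the 4 calls were lost and the median was -0.16.

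The isoforms with restricted expression were split. Of 9, limma called 3 lower and 1 higher, with a median of -0.75, where 14.7% of all genes were called lower and 16% higher. The 3 were Atp6v1c2 (C2), which dropped from 2.80, 2.72 and 1.03 to 0.617, 0.579 and 0.413, Atp6v0a4 (a4) and Atp6v1g3 (G3), all known from intercalated cells. Their changes were -1.91 ± 0.25, -1.78 ± 0.22 and -1.39 ± 0.16, each larger than the change of any ubiquitous member. Atp6v1b1, the B1 isoform of intercalated cells, was at 1.55, 0.744 and 0.286 against 0.504, 0.276 and 0.293. It thus differed in mice 495 and 485 and not in mouse 512 (-1.62, -1.43 and 0.03), and its adjusted p was 0.114. Without mouse 512 limma called Atp6v1b1 lower (-1.52, adjusted p = 0.00443), as it did 29% of all genes tested. Mouse 512 alone showed no fall, so leaving it out could only enlarge the change and is no independent support.

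Tcirg1, the a3 isoform known from osteoclasts and from lysosomes of macrophages, was the isoform called higher. It rose from 1.29, 1.35 and 1.93 to 2.21, 2.95 and 3.13, with all 3 ligated kidneys above the 3 contralateral kidneys (0.87 ± 0.16, adjusted p = 0.0339). Of all genes 16% were called higher and 24.7% had their ligated kidneys above without overlap. Atp6v0d2, the d2 isoform also known from osteoclasts and macrophages, was at -0.31 ± 0.18 (adjusted p = 0.231), and Atp6v1e2, known from testis, at -0.29 ± 0.22 (adjusted p = 0.330). The Tcirg1 call was lost with centring on the array median (0.56) and on the spike-in spots (1.19), with no filter on dim probes, and without mouse 495 or 485, while the direction was kept in each.

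**Figure D3:**
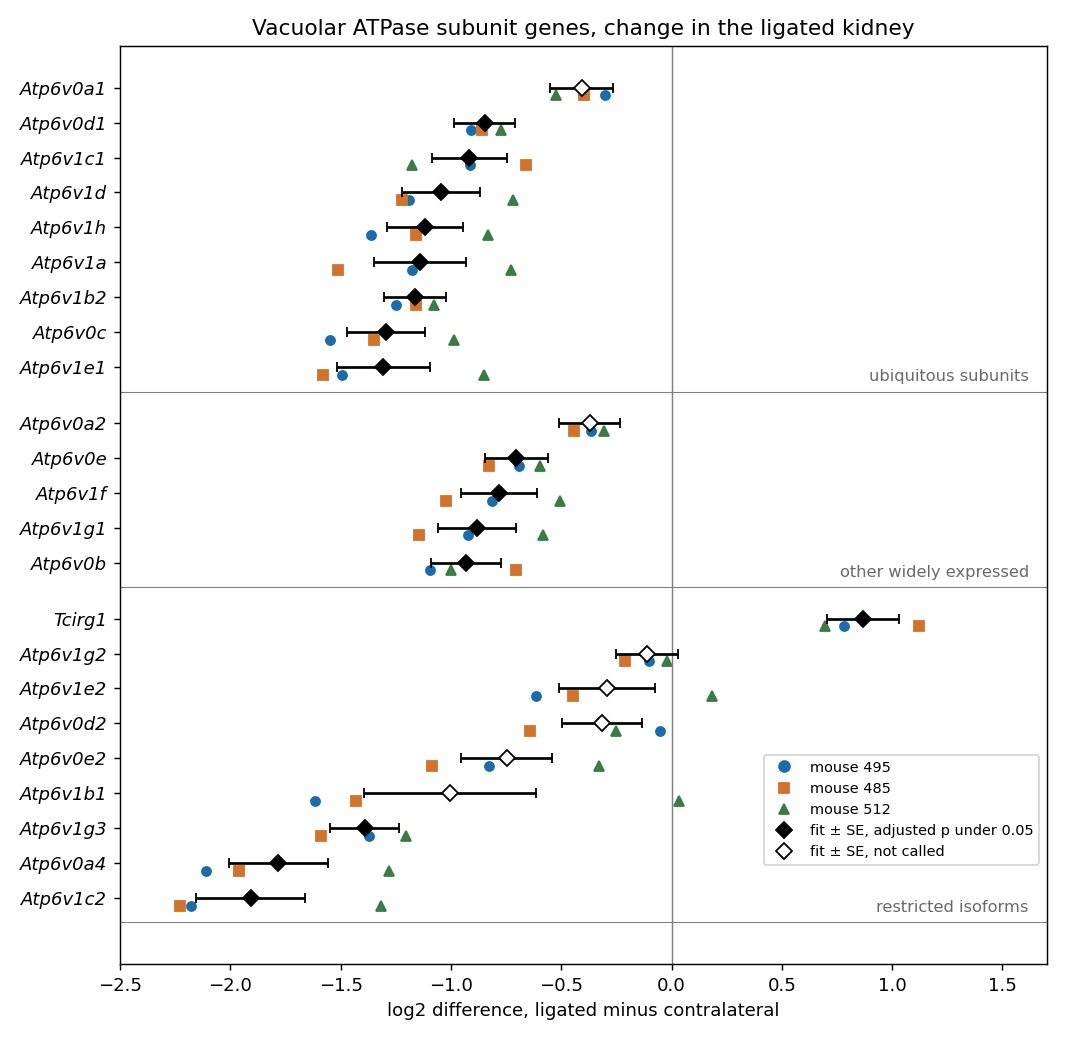
Log2 difference, ligated minus contralateral, of 9 ubiquitous, 5 other widely expressed and 9 restricted subunit genes. Diamonds with bars are the limma estimate ± SE, filled where the adjusted p was under 0.05, and coloured points are the 3 mice. Tcirg1 alone among these genes was called higher; Atp6v1c2 and Atp6v0a4 lie farthest to the left.

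Within an array, the ratio of a ubiquitous subunit to another isoform of that subunit does not depend on how the array was centred. The a1 over a4 ratio (Atp6v0a1 over Atp6v0a4) was higher in the ligated kidney by 1.81, 1.56 and 0.76 on the log2 scale, a mean of 1.38. The a1 over a3 ratio (Atp6v0a1 over Tcirg1) was lower, at -1.08, -1.52 and -1.22. The a1 term here is the brightest of 3 probes that disagreed: with the mean of the probes the change of Atp6v0a1 was 0.10, that of Tcirg1 0.87 and that of Atp6v0a4 -1.70. The cDNA-clone probe of Atp6v0a1, at 0.78, 1.44 and 0.60 in mice 495, 485 and 512, was close to Tcirg1 in mice 495 and 512 and above it in mouse 485 (0.78, 1.12 and 0.70), so the a1 over a3 difference depends on the probe.

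For subunit C the Atp6v1c1 over Atp6v1c2 ratio was higher by 1.26, 1.57 and 0.14. The Atp6v0d1 over Atp6v0d2 ratio changed by -0.86, -0.22 and -0.52, and the Atp6v1e1 over Atp6v1e2 ratio by -0.88, -1.13 and -1.03. The Atp6v1b2 over Atp6v1b1 ratio differed in sign between mice, at 0.37, 0.27 and -1.11. Each of the 5 ratios that moved 1 way in all mice had p = 0.25 in the exact two-sided sign-flip test, the smallest that 3 mice allow, and 0.3 after adjustment over the 6 ratios; that of Atp6v1b2 over Atp6v1b1 had p = 1.00. With quantile normalization the mean of the Atp6v0d1 over Atp6v0d2 ratio turned to 0.15, that of Atp6v1b2 over Atp6v1b1 turned to 0.11, and that of Atp6v1e1 over Atp6v1e2 shrank to -0.25.

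**Figure D4:**
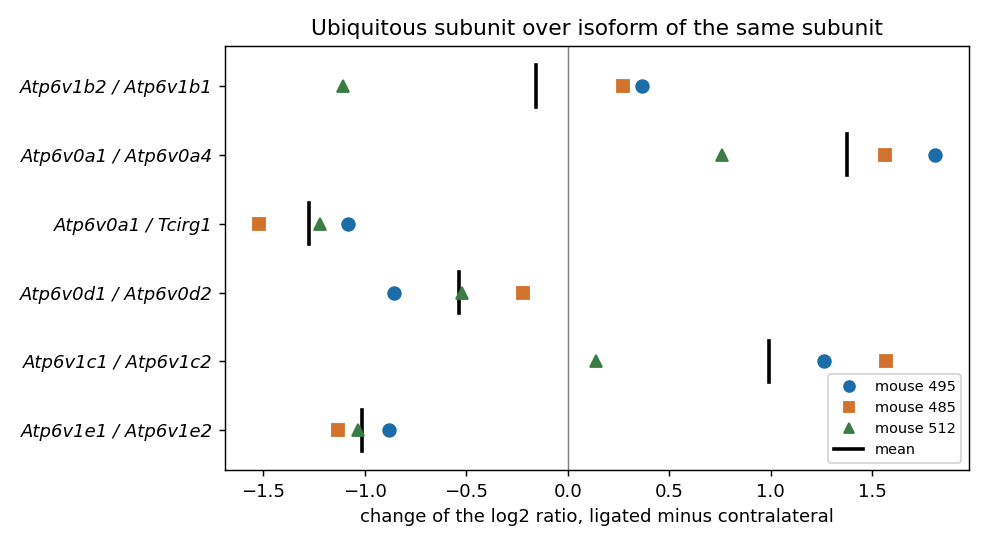
Change of the log2 ratio of a ubiquitous subunit to another isoform of that subunit, ligated minus contralateral kidney, for 3 mice (points) and their mean (bar). With the brightest probe of Atp6v0a1, its ratio to Atp6v0a4 lies above 0 and its ratio to Tcirg1 below 0 in all 3 mice, and only the ratio of Atp6v1b2 to Atp6v1b1 lies on both sides of 0.

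Most markers of intercalated, proximal tubule and principal cells were lower in the ligated kidney, while those of some other cell types were not. For all marker counts given here and next, the shares over all genes were 14.7% called lower and 16% higher. Of 8 intercalated cell markers 6 were called lower and 0 higher (median -1.59), and their summed level was 11.3 to 36.5 in contralateral and 4.03 to 9.30 in ligated kidneys. Of 10 proximal tubule markers 7 were called lower (median -2.29), with sums of 501 to 1680 against 282 to 376. All 5 principal cell markers were called lower (median -1.53; sums 12.2 to 28.7 against 3.16 to 5.55). Of the 5 thick limb and distal tubule markers tested, 1 was called lower (median -0.56), and the sums overlapped, at 104 to 287 against 119 to 163. That median had no settled direction: it was -0.14 without mouse 495, 0.02 without mouse 485 and -1.40 without mouse 512.

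In the other direction, 9 of 10 macrophage markers were called higher (median 3.20; sums 17.6 to 90.3 against 214 to 248), as were 6 of 7 fibroblast markers (median 3.32; sums 12.2 to 64.0 against 120 to 244) and 3 of 6 T cell markers (median 1.85; sums 0.380 to 0.445 against 1.28 to 2.44). Of 6 osteoclast markers 2 were called higher and 2 lower (median 0.46), with 4 positive and 2 negative changes. Their sums were 5.03 to 8.86 against 3.49 to 4.23. Acp5, called lower, made up most of these sums, at 7.48, 8.48 and 4.52 in contralateral and 2.46, 2.91 and 2.83 in ligated kidneys. All of these markers were above background on every array except 1 thick limb and distal tubule marker, Pvalb, which was not tested, and 1 T cell marker, Cd2, which was above background on 2 of 3 contralateral arrays. In the contralateral kidney of mouse 512 the summed intercalated and proximal tubule markers were the lowest of the group and the macrophage and fibroblast markers the highest. The part of these shifts in the subunits' values was not tested.

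Transcripts for proteins that assemble or steer the pump were lower in part. Of 12 accessory and assembly genes 6 were called lower and 1 higher (median -0.68), where 14.7% of all genes were called lower and 16% higher. Rnasek, a small membrane protein bound to V0, was at -1.20 ± 0.16 and Tmem199, an assembly factor of V0, at -0.88 ± 0.16. Oxr1, a TLDc-domain protein of the kind that can detach V1 from V0, was the gene called higher, at 0.85 ± 0.21 (adjusted p = 0.0477), and its direction was kept where its call was lost: with centring on the array median (0.54) or the spike-in spots (1.17), with quantile normalization (0.78), with no filter on dim probes (0.85), and without mouse 495 (0.75) or 485 (0.73).

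Of the 4 MiT/TFE factors 1 was called higher and 0 lower, where 16% of all genes tested were called higher and 14.7% lower. Mitf was at 0.547, 0.438 and 0.532 in contralateral and 0.850, 0.876 and 0.933 in ligated kidneys, with no overlap (0.82 ± 0.15, adjusted p = 0.0340). The median of the 4 was 0.19, and its sign was not stable: it was -0.12 with centring on the array median. The Mitf call was lost with that centring (0.51), with the spike-in spots (1.14), with the mean of the probes (0.46), with no filter on dim probes, and without mouse 495 or 485.

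Of 24 lysosomal genes 10 were called lower and 0 higher (median -0.66), where 14.7% of all genes were called lower. The largest changes were in hydrolases: Neu1, a sialidase (-1.85 ± 0.21), Glb1, a beta-galactosidase (-1.43 ± 0.24), and Lipa, the acid lipase (-1.26 ± 0.21). The list was not uniform, and its 24 fold changes ran from -1.85 to 0.94. With quantile normalization 2 lysosomal genes were called higher and 5 lower, with a median of -0.12. Of all 19598 genes 2584 were called higher and 2888 lower (14.7%) in that setting. Without the mouse block Glb1 was not called (adjusted p = 0.0627).

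Chloride movement balances the charge that the pump carries. Of 6 genes of the endosomal and lysosomal chloride exchangers 2 were called lower and 0 higher (median -0.89), where 14.7% of all genes were called lower. The 2 called were Clcn5, the exchanger of proximal tubule endosomes whose loss causes Dent disease, at -1.39 ± 0.19, and Clcn7, the lysosomal exchanger, at -0.86 ± 0.15. The Rag and Ragulator group links amino acid sensing on the lysosome to mTORC1 and binds the pump. Of its 13 listed genes 12 were matched on the array. Among these 3 were called lower and 1 higher (median -0.52), where 14.7% of all genes were called lower and 16% higher. Mtor, the kinase itself, was at 5.12, 6.69 and 2.88 in contralateral and 1.47, 1.64 and 1.05 in ligated kidneys (-1.76 ± 0.18, adjusted p = 0.0221). Lamtor1, the membrane anchor of Ragulator, was at -0.67 ± 0.14. With quantile normalization Lamtor1 was at -0.06 (adjusted p = 0.742), and the median of the group was -0.16. Rragb was called higher and at least 1.71-fold, because it was above background on only 1 of 3 contralateral arrays; with normexp background correction Rragb was at -0.11 and not called.

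**Figure D5:**
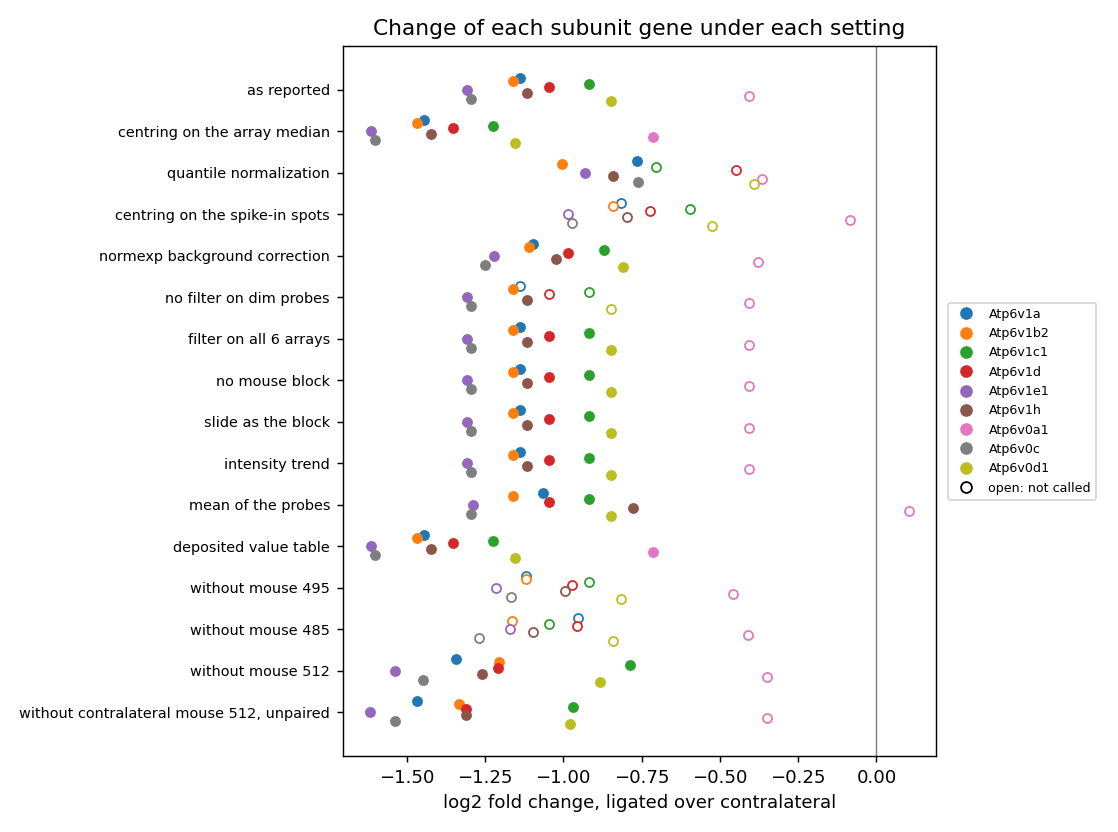
Log2 fold change, ligated over contralateral, of the 9 ubiquitous subunit genes as reported and under 15 other settings; filled points had an adjusted p under 0.05. Of all points, 1 lies above 0, that of Atp6v0a1 with the mean of its probes (0.10), and all points are open with the spike-in spots, without mouse 495 and without mouse 485.

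The members' median minus the median of all genes was -1.10. Centring subtracts a constant from each array and cannot move this difference; it was -0.74 with quantile normalization, -0.84 with normexp background correction and -0.89 with no filter on dim probes. Centring did move the position of all genes. As reported, 3135 genes were called higher and 2884 lower (30.7% in either direction), whereas centring on the array median gave 2561 higher and 5938 lower, and the spike-in spots gave 2444 higher and 653 lower. Among the other lists the spike-in spots gave 2 restricted isoforms, 1 lysosomal gene and 1 gene of the Rag and Ragulator group called lower, and the calls among the other widely expressed subunits, the accessory and assembly genes, the chloride exchangers and the MiT/TFE factors were lost.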

How the data were processed

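Per the labels, total RNA of each kidney was turned into fragmented cRNA carrying Cy3. For every array there is a deposited scanner table; its processed signal is an intensity, background-subtracted and detrended within the array by Agilent Feature Extraction but not scaled between arrays, per the file headers. The headers give version 10.5.1.1 and the submitters' processing notes 9.1. The deposited value table holds a linear ratio: it equals the processed signal divided by the array median, a factor of 62.8 to 176, with 99% of values within 0.00289%. Flags for spots above background, saturated or outlying are also deposited, as values of 0 or 1; 0 spots were saturated, and 43 to 79 flagged spots per array were dropped.

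From the intensities, log2 values minus the array's 75th percentile were computed. A probe was tested where it was above background on 3 of 3 ligated or 3 of 3 contralateral arrays, with the brightest probe standing for its gene. Old symbols were updated through a RefSeq gene table used for names alone. limma 3.58.1 in R 4.3.3 (lmFit, eBayes, two-sided) had the mouse as a block (slide 1 held mice 495 and 485, slide 2 mouse 512), and the scripts were tested on simulated data. The labels' mouse numbers pair the kidneys. Deviations from the group means correlated within mice (r = 0.194, 0.481 and 0.271 for mice 495, 485 and 512) and at most 0.0183 between mice. These deviations sum to 0 in each group, so positive values within mice push those between mice down. Mouse 512 was alone on slide 2, so its r cannot tell mouse from slide. The limma p-values rest on the spread within 3 pairs of kidneys (2 residual degrees of freedom) and on a variance shared over all genes (2.055 prior degrees of freedom). The number of arrays limits the precision.

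The members, gene lists and tests were chosen with earlier results of these data known. Named were all members and their probes, the paired isoforms, from each other list the 3 called genes with the largest change (with none called, the smallest p), and the 5 genes nearest to Atp6v1a and Atp6v0c. An "at least" fold sets the brighter group against, per dim array, the higher of the probe's signal and the lowest signal above background. Alternatives varied scaling, background correction, filter, block, variance model, probe rule, the value table and the mice used.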

Additional observations from a re-analysis of the deposited data

How the results depend on the processing

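Depth in the sense of signal over background did not limit the 9 subunit genes, whose probes were above background on all arrays. With 3 mice, the results depended on which of them were used, on the centring and on the choice of probe. The cause of these shifts was not tested beyond what each setting itself changes. The count of genes called, 6019 as reported, was 3097 with the spike-in spots, 2662 with no filter on dim probes, 0 to 11032 when 1 mouse was left out (limma; 4952 genes without mouse 495 and 4959 without mouse 485 had an unadjusted p under 0.05) and 11037 without the contralateral kidney of mouse 512. Of the 8 members called lower, 5 were called with quantile normalization, 0 with the spike-in spots (limma, smallest adjusted p 0.134) and 4 with no filter. When a mouse was left out, 0 to 8 were called. The share of all genes called lower was 14.7% as reported and with quantile normalization, 3.33% with the spike-in spots and 3.17% with no filter. It was 0 to 29% when a mouse was left out. The members' median of -1.12 was -1.42 with the array median and with the deposited value table, -0.76 with quantile normalization and -0.80 with the spike-in spots, and ran from -1.21 to -0.996 when a mouse was left out. Without the mouse (replicate) block 5538 genes and 8 members were called, where 14.2% of all genes were called lower, and the pairing changed the call of no member.

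Among the single genes and ratios recomputed, signs turned in 7 cases: Atp6v0a1 with the mean of its probes (0.10), Atp6v0d2 (0.0078) and Atp6v1e2 (0.030) with the spike-in spots, Rragb with normexp (-0.11), the Atp6v1b2 over Atp6v1b1 ratio with quantile normalization (0.11) and without mouse 512 (the range without 1 mouse was -0.42 to 0.32), and the Atp6v0d1 over Atp6v0d2 ratio with quantile normalization (0.15). The 8 other members stayed negative under all 15 alternatives.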

Other observations

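Other subunits with several probes gave further readings that the gene values leave out; these probes were looked at after the values were known, and their adjusted p-values are over all probes tested with limma. Atp6v0a2, the a2 isoform of the Golgi and endosomes, had probes at -0.37, -0.66 and -0.79 (adjusted p = 0.102, 0.0882 and 0.0595), so its brightest probe gave the smallest change and none passed the threshold. For Atp6v0e, a small V0 subunit, the probe that stands for the gene was at -0.70, while a probe that the files assign to a cDNA clone was at 0.22 (adjusted p = 0.363). Both probes of Atp6v0a4 fell, at -1.78 and -1.63. Of the probes of Atp6v1g3, 1 was at -1.39 and the other was above background on 0 arrays.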
